A study of Mus musculus with 12 samples.

Results

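Knockout-only H3K27me3 peaks are stretches of chromatin where trimethylated lysine 27 of histone H3 was listed in both lincRNA-p21 knockout (KO) libraries and in neither wild-type (WT) library. They were chosen by overlap of H3K27me3 peaks, as those of doxorubicin-treated KO cells that overlapped a KO mock peak by at least 1 bp and overlapped no peak of either WT list. There were 708 of them, out of 17828 H3K27me3 peaks in the KO doxorubicin list and 68085 over the 4 H3K27me3 lists. The presence or absence of H3K27me3 chose these peaks, so that this pattern is a description and no support for a difference between genotypes. H3K4me3 (trimethylated lysine 4), which was not used to choose them, was read at the same places.

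Primary fibroblasts from mouse embryos (MEFs) on a hybrid 129/B6 background were used. The groups were KO MEFs (lincRNA-p21-/-) given doxorubicin, KO MEFs that were mock treated, WT MEFs (lincRNA-p21+/+) given doxorubicin and WT MEFs that were mock treated. Doxorubicin, a DNA-damaging drug, is labelled as 0.5 mM for 24 h, and the unit is printed as labelled. Each mark was mapped by chromatin immunoprecipitation with sequencing (ChIP-seq) in 1 library per condition, and 4 input libraries were not analysed here. The labels do not say how the allele was made or how many embryos or cultures stand behind a library. With 1 library per group there is no spread between replicates, no test between groups was made, and differences between libraries in depth or enrichment cannot be told apart from differences between genotypes. The lists hold no read counts, so that the depth behind a peak is unknown.

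H3K27me3 is written by Polycomb repressive complex 2, whose catalytic subunit is EZH2, and is found over silent developmental genes, often as domains many kilobases wide. H3K4me3 marks the start sites of active or poised genes, and places with both marks are called bivalent. After DNA damage p53 induces lincRNA-p21, a long noncoding RNA, and the series title ties it to Polycomb target genes and to the neighbouring gene for the cell cycle inhibitor p21. A knockout-only H3K27me3 peak is thus a place where the mark was listed in the cells without this RNA, with and without damage.

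Knockout-only peaks were the least frequent of the 8 combinations of lists in which a KO doxorubicin H3K27me3 peak could be found. They made up 3.97% of that list (exact 95% binomial interval 3.69 to 4.27). The peaks shared with the WT doxorubicin list and no other numbered 1089 (6.11%), and those shared with the WT mock list and no other numbered 1081 (6.06%). A further 2844 peaks (15.95%) were in the KO doxorubicin list alone, and 8931 (50.1%) were in all 4 lists. Counted from KO mock peaks the order was another: 708 were shared with the KO doxorubicin list and no other, 658 with the WT doxorubicin list and no other, and 1417 with the WT mock list and no other.

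**Figure D1:**
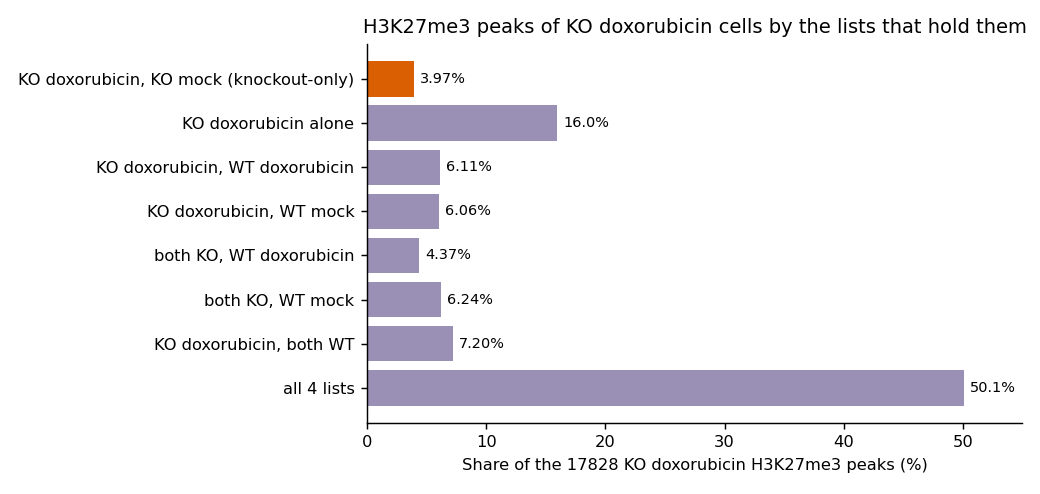
Bars give the share of the KO doxorubicin H3K27me3 peaks (x axis, percent) for each combination of lists that held the peak (y axis). The knockout-only bar, at the top, is the shortest at 3.97%, against 6.11% and 6.06% for peaks shared with 1 WT list.

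The background for these counts is wide. Of the KO doxorubicin peaks 32.2% had no WT doxorubicin peak, 30.4% had no WT mock peak and 19.9% (3552 peaks) had neither, while 64.7% overlapped a KO mock peak. Of the 3552 peaks with neither, 708 (19.9%, interval 18.6 to 21.3) were also in the KO mock list. The mirrored set, wild-type-only peaks, was made from WT doxorubicin peaks that overlapped a WT mock peak and no KO peak. It held 1394 peaks, or 7.96% of the WT doxorubicin list (7.56 to 8.37). Of the WT doxorubicin peaks 23.6% (4131) were absent from both KO lists, and 33.7% (32.3 to 35.2) of these were also in the WT mock list. The WT mock list covered 48.0 Mb and the other H3K27me3 lists 35.9 to 38.96 Mb, and the part of this gap in the lower knockout-only count was not tested. When overlapping peaks were joined over the 4 lists into 24298 regions, 582 regions (2.40%) lay in the 2 KO lists only. Regions in both WT lists only numbered 902, those in KO doxorubicin and WT mock only 662, and those in KO mock and WT doxorubicin only 536.

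Knockout-only peaks had low scores and were narrow, as were the other KO doxorubicin peaks missing from some lists. The score is the authors' peak score, minus 10 times log10 of the MACS p-value, and the lists begin at 80. The median score was 109 in the KO doxorubicin list (interval 105 to 114, from order statistics over peaks), against 141 for the whole list. A score under 100 was found in 277 members (39.1%), and a score of 200 or more in 55 (7.77%). The highest, 361, ranked 3253 in its list, and 81.8% of the list scored lower. In the KO mock list the overlapping peaks had a median score of 113 (110 to 117), against 145 for the whole list. A score of at least 150 in both KO lists was reached by 40 members (5.65%). Just inside the floor were members at chr2:91359263-91360144 (score 80.01), at chr2:166200715-166201356 (80.1) and at chr14:79144634-79145352 (80.1).

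**Figure D2:**
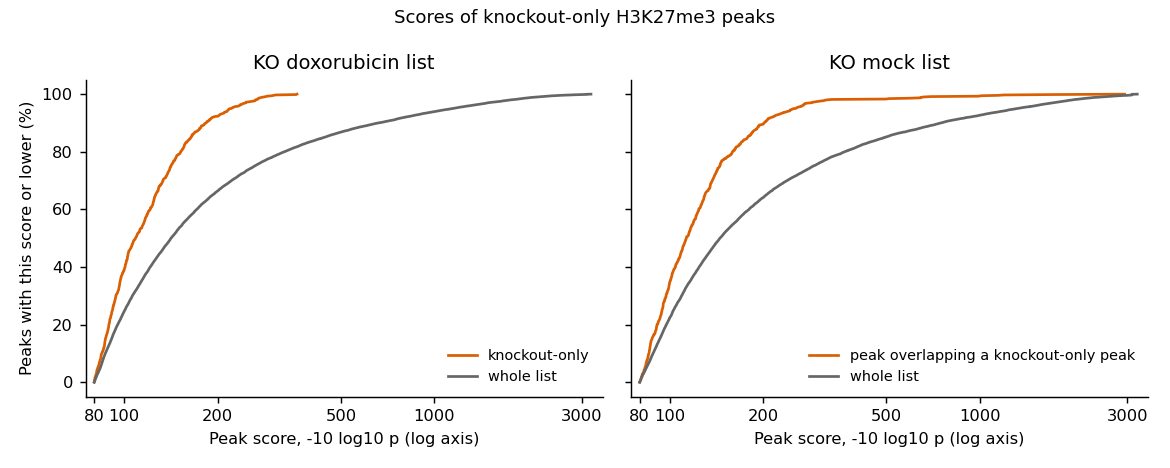
Curves give the share of peaks (y axis, percent) with a given score or lower (x axis, log scale), for knockout-only peaks or their KO mock partners and for the whole list, in the KO doxorubicin list on the left and the KO mock list on the right. Members lie to the left of the whole list in both panels, with medians of 109 and 113 against 141 and 145.

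The median member was 1049 bp wide, with a range of 361 to 2789 bp, against 1310 bp for the whole KO doxorubicin list and 1943 bp for the peaks in all 4 lists. Peaks shared with WT doxorubicin and no other list had a median score of 112 and width of 1077 bp, those shared with WT mock and no other list 105 and 1033 bp, and those in the KO doxorubicin list alone 98.1 and 982 bp. All members together covered 814 kb of the 35.9 Mb of that list. The score reached the median of its own list in 24.9% (21.7 to 28.2) of knockout-only and 21.2% (19.1 to 23.5) of wild-type-only peaks, and wild-type-only peaks had a median width of 1170 bp. Of the peak numbers given by MACS 39.01 to 47.2% were missing from the 4 H3K27me3 lists, and whether a WT peak scored under 80 lay at a member was not tested.

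The pair of KO peaks behind a member usually lay well over each other. KO mock peaks covered a median of 74.5% of a member (70.3 to 76.8), and at least 50% of 547 members (77.3%). In 106 members (15.0%) the KO mock partner was itself long or shifted enough to touch a WT peak. The other 602 members had partners free of any WT peak. Counted the other way, from KO mock peaks that overlapped a KO doxorubicin peak and no WT peak, the number also came to 708, although the peaks are not the same list.

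Of the 10 highest-scoring members 5 lay within 3 kb of a WT H3K27me3 peak and the other 5 lay at least 28417 bp from one. The highest lay at chr10:21159004-21161067, with a score of 361 in KO doxorubicin cells and 274 in KO mock cells, and KO mock peaks covered 99.8% of it. The nearest WT doxorubicin peak was 2014 bp away and the nearest WT mock peak 2512 bp away. The next KO doxorubicin peak was 552 bp away, and the nearest WT peak lay in all 4 lists.

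The next, at chr12:28652981-28655672, scored 359 in KO doxorubicin cells and 117 in KO mock cells. WT peaks came within 2313 bp in doxorubicin-treated cells and 1980 bp in mock cells. At chr2:91291315-91293452 the scores were 286 and 84.8, and a WT doxorubicin peak began 7 bp away. These 3 members thus had H3K27me3 of WT cells close by.

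Members farther from WT H3K27me3 included 1 at chr14:34163740-34165497, with scores of 307 in KO doxorubicin and 111 in KO mock cells and the nearest WT peak 95508 bp away. At chr7:127951757-127954023 the scores were 303 and 128, and the nearest WT peak was 28417 bp away. At chr14:47327876-47329780 they were 289 and 98.9, at a distance of 101172 bp. At chr11:89833725-89836513, the widest member, they were 277 and 108, at 55684 bp. Each of these 4 scored above the list median in KO doxorubicin cells and below it in KO mock cells. They were picked for high KO doxorubicin scores, so that the first part follows from the choice. Members near WT peaks, picked the same way, lay on both sides of the KO mock median of 145. Below it were 117 (chr12:28652981-28655672) and 84.8 (chr2:91291315-91293452). Above it were 274 (chr10:21159004-21161067), 646 (chr13:53565964-53568125) and 162 (chr1_random:356076-358550). Whether a low KO mock score goes with distance was not tested.

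The member at chr5:12383688-12385125 scored 282 and 113, and KO mock peaks covered 98.7% of it. Its nearest WT H3K27me3 peak was 2657708 bp away in doxorubicin-treated and 3280192 bp away in mock cells. The member at chr1_random:356076-358550, on a sequence not placed within its chromosome, scored 274 and 162, with a WT doxorubicin peak 371 bp away and no WT mock peak on that sequence. The member at chr13:53565964-53568125 scored 299, and only 1.94% of it was covered by its KO mock partner, a peak of score 646 that also touched WT peaks. For that member the rule rests on an overlap at its edge. The remaining pair of the 5 widest members lay at chr5:68076749-68079378, 2630 bp wide with scores of 237 and 210.0, and at chr14:23494629-23497131, 2503 bp wide with scores of 247 and 147. Their nearest WT peaks were 860 bp and 17405 bp away.

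**Figure D3:**
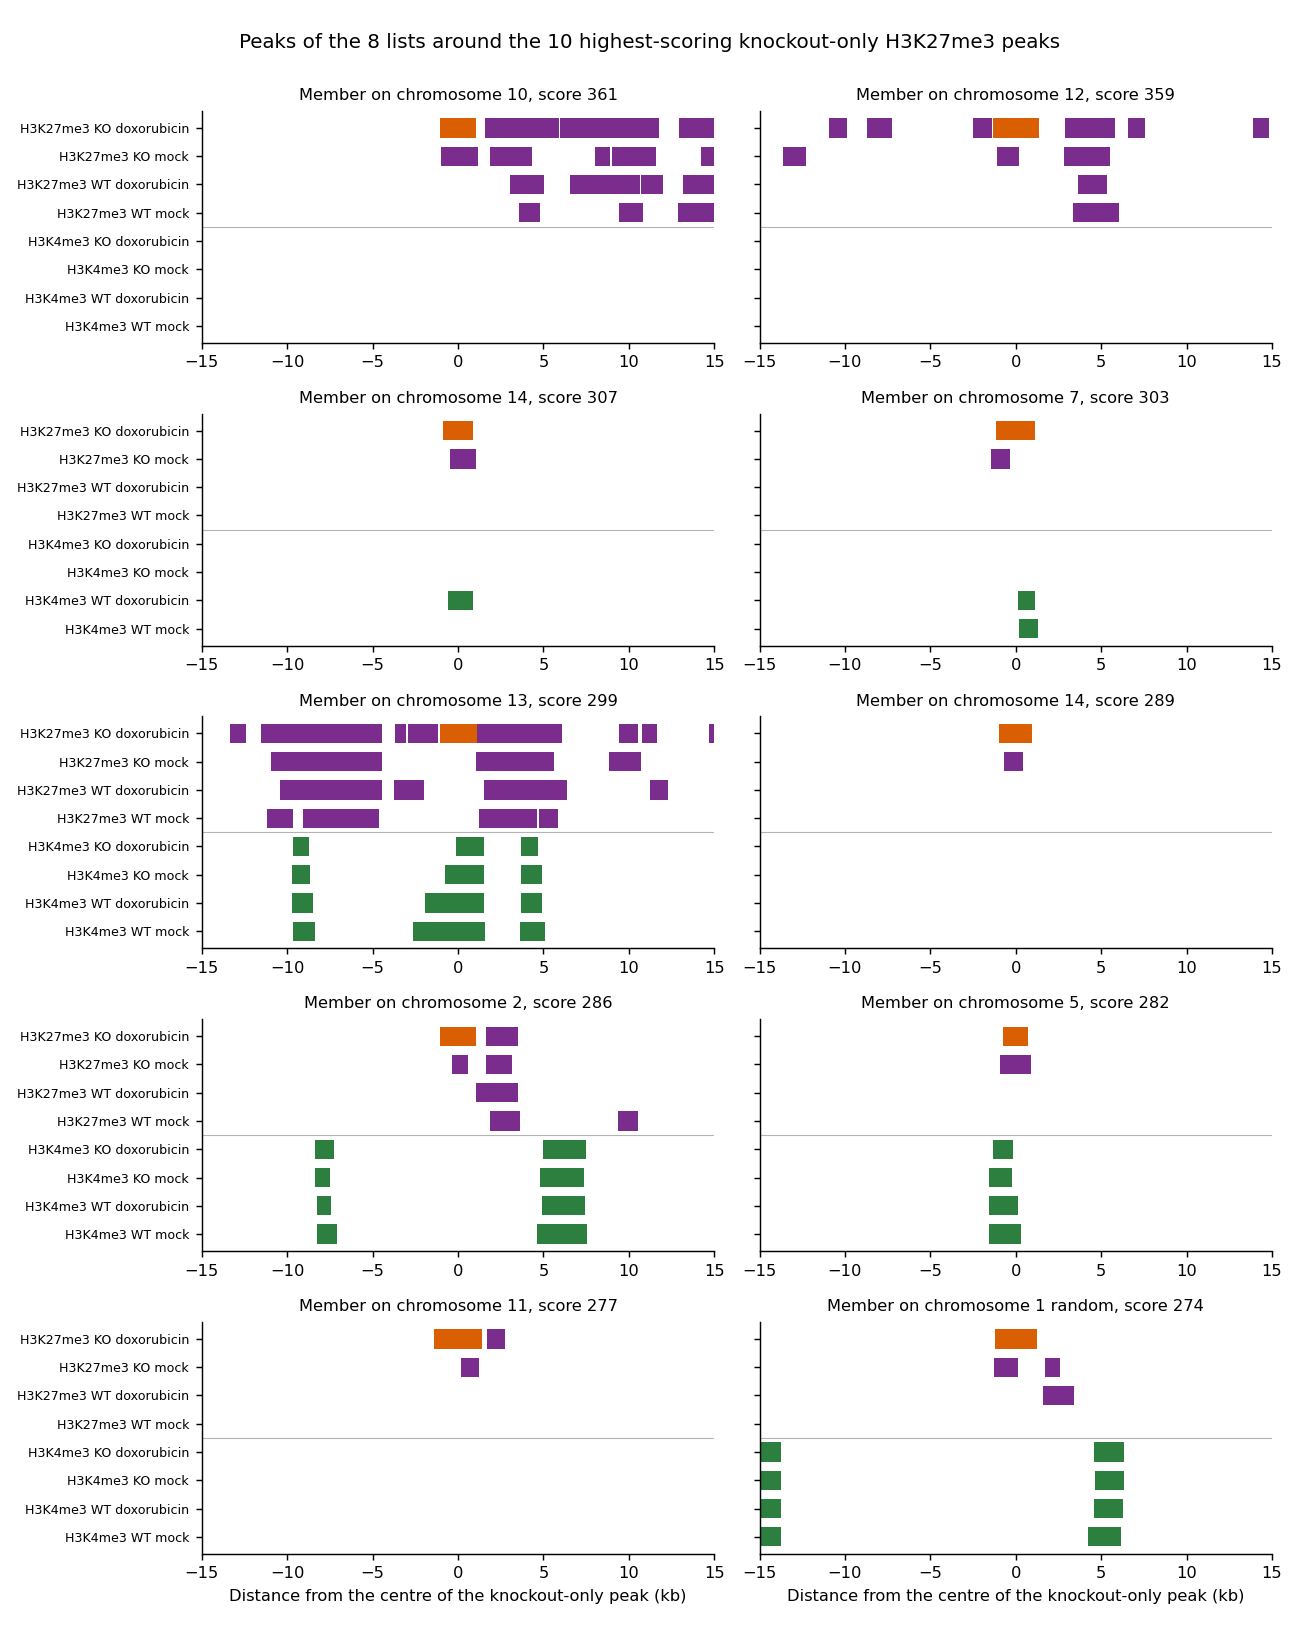
Each panel shows the peaks of the 8 lists within 15 kb of the centre of 1 of the 10 highest-scoring knockout-only peaks (x axis, distance in kb), with the member in orange, other H3K27me3 peaks in purple and H3K4me3 peaks in green. The first member, on chromosome 10, has a peak listed in all 4 conditions 2014 bp away, whereas those on chromosomes 7 and 14 have no WT H3K27me3 peak in view.

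The median gap from a knockout-only peak to the nearest WT peak of either list was 1786.5 bp (interval 1484 to 2259). It was 2781.5 bp with scores of at least 100, and 2734 bp for the 602 members whose KO mock partner was free of WT peaks; other rules for sharing or joining peaks moved it to values between 452.5 bp and 5823 bp. Of the 708 members 273 (38.6%, 35.0 to 42.3) were within 1 kb of a WT peak, 421 (59.5%, 55.7 to 63.1) within 3 kb and 542 (76.6%, 73.3 to 79.6) within 10 kb. WT peaks stood on both sides within 3 kb of 117 members (16.5%) and within 10 kb of 260 (36.7%). The nearest WT peak overlapped a KO peak for 495 members (69.9%) and lay in all 4 lists for 208 (29.4%). As background, 23.6% of all WT doxorubicin peaks and 4104 of the 16160 WT mock peaks overlapped no KO peak. Of all WT doxorubicin peaks 48.0% lay in all 4 lists, and of all WT mock peaks 45.1%. The members' share of 29.4% (26.0 to 32.9) was below this background, and their share with a KO overlap was lower than its background too. A WT peak that overlapped a KO peak was within 3 kb of 313 members (44.2%, 40.5 to 48.0). The median gap was 3579.5 bp to the WT doxorubicin list alone and 4442 bp to the WT mock list alone (707 members, since 1 lay on a sequence with no WT mock peak).

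The members just inside the overlap rule lay 3 bp, 4 bp and 7 bp from a WT peak, at chr9:95448842-95449803, at chr9:37194934-37195727 and on chromosome 2 as given above. The peaks just outside it touched WT peaks by 2 bp, 3 bp and 4 bp, at chr4:116568149-116569060, at chr5:139801524-139802242 and at chr7:150569577-150570445. Their scores of 91.5, 80.1 and 95.5 were in the range of the members.

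Wild-type-only peaks had nearly the same near part of the distribution and a shorter far part. Their median gap to the nearest KO peak was 1639.5 bp (1411 to 1874). A KO peak lay within 1 kb of 39.5% (36.9 to 42.1) and within 10 kb of 82.1% (80.02 to 84.1). More than 10 kb separated 166 knockout-only peaks (23.4%, 20.4 to 26.7) from the nearest WT peak. A gap over 1 Mb was found for 7 knockout-only peaks and 1 wild-type-only peak.

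**Figure D4:**
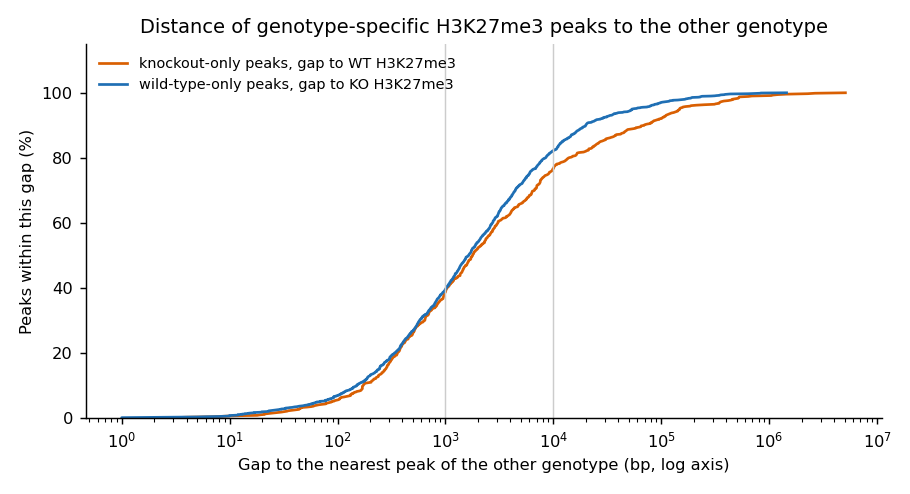
Curves give the share of peaks (y axis, percent) within a given gap (x axis, bp, log scale) of the nearest H3K27me3 peak of the other genotype, for knockout-only and for wild-type-only peaks, with lines at 1 kb and 10 kb. The curves run together up to 1 kb, where they stand at 38.6% and 39.5%, and at 10 kb they stand at 76.6% and 82.1%.

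Remote and near members had similar scores. The 166 members more than 10 kb from WT H3K27me3 had a median score of 110 (102 to 123) and the 542 others 109 (103 to 114). The farthest was at chrX:40780987-40781830, 5090134 bp from a WT peak, with scores of 146 in KO doxorubicin and 159 in KO mock cells. No H3K4me3 peak of any condition overlapped it, but a WT mock H3K4me3 peak lay 69 bp away. The next 4 all carried H3K4me3 in the 4 conditions. These were the member on chromosome 5 described above and members at chr1:45982729-45984167 (scores 214 and 135, 2272506 bp away), at chr10:108446061-108447812 (234 and 180, 1442941 bp) and at chr11:110927721-110929685 (152 and 122, 1194488 bp). Isolated H3K27me3 peaks in KO cells thus included places that carry H3K4me3 in WT cells too.

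Most members had no other member within 10 kb, and no run held more than 3. No set of equal size was drawn for comparison, so whether members lie closer together than other peaks was not tested. Another member lay within 10 kb of 77 members (10.9%, 8.68 to 13.4), and the median gap to the next member was 399304 bp. Joining members at gaps of at most 10 kb gave 631 single members, 34 pairs and 3 runs of 3. By the same measure 20.4% (18.3 to 22.6) of wild-type-only peaks had another within 10 kb, but that set held 1394 peaks, and a larger set has closer neighbours. Other KO doxorubicin H3K27me3 peaks were near more often, within 10 kb of 483 members (68.2%, 64.6 to 71.6), against 78.0% (77.4 to 78.6) of all peaks of that list.

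Of the 3 runs of 3, the highest-scoring lay at chr9:69816142-69830213, with KO doxorubicin scores of 98.7, 143 and 140 and KO mock scores of 94.4, 162 and 85.4. Its members were 1890 to 8980 bp from a WT doxorubicin peak and at least 51097 bp from a WT mock peak. The second, at chr4:117206594-117218169, had KO doxorubicin scores of 121, 110 and 86.7 and KO mock scores of 119, 191 and 186, and its members lay 57 to 567 bp from a WT peak. Its KO mock peaks of scores 119 and 191 also touched WT peaks. The last, at chr10:120503341-120510868, had KO doxorubicin scores of 99.3, 106 and 111 and lay at least 23757 bp from WT peaks. A single KO mock peak of score 183 spanned the first 2 members of that run, and the third overlapped its own KO mock peak of score 97.4 by 7.65% of its width.

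The fullest 1 Mb window, at chr10:120000001-121000000, held 6 members and also contained that last run. It had 45 H3K27me3 peaks in KO doxorubicin, 24 in KO mock, 24 in WT doxorubicin and 18 in WT mock cells. These covered 68.5 kb, 33.6 kb, 39.6 kb and 42.5 kb in the same order, so that the count of peaks and the covered length ranked the libraries differently. Each of 3 windows held 5 members. At chr9:122000001-123000000 there were 38 and 40 peaks in the KO doxorubicin and KO mock lists and 26 and 35 in the WT doxorubicin and WT mock lists. At chr4:117000001-118000000 there were 66 and 58 in the KO lists and 48 and 42 in the WT lists, in the same order. The window at chr4:34000001-35000000 had the fewest peaks, with 13 and 10 peaks in the KO doxorubicin and KO mock lists and 2 and 3 in the WT doxorubicin and WT mock lists. There the covered length was 16.5 kb and 13.5 kb in KO doxorubicin and KO mock cells, against 1.79 kb and 9.26 kb in WT doxorubicin and WT mock cells. Its highest-scoring member, chr4:34936880-34938521, picked like the windows after the values were seen, scored 218 in KO doxorubicin and 86.7 in KO mock cells and lay 88608 bp from a WT peak. Members fell in 492 windows in all, and 48 windows held 3 or more.

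Members were found on every autosome, where they made up 2.74% (chromosome 15, 19 of 694) to 5.87% (chromosome 13, 41 of 698) of the KO doxorubicin peaks. The intervals of these extremes, 1.66 to 4.24 and 4.25 to 7.88, did not meet, but they were picked as the lowest and highest of all the autosomes. Chromosome 17, which carries the targeted locus, had 28 members among 832 peaks (3.37%, 2.25 to 4.83), below the 3.97% of the whole list by less than counting error. Chromosome X had 5 among 84 peaks (5.95%, 1.96 to 13.3).

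H3K4me3 lay at a small share of the members. It overlapped 57 of the 708 in KO doxorubicin cells (8.05%, 6.15 to 10.3), 52 in KO mock cells (7.34%, 5.53 to 9.52), 65 in WT doxorubicin cells (9.18%, 7.16 to 11.6) and 61 in WT mock cells (8.62%, 6.65 to 10.9). The background over all KO doxorubicin H3K27me3 peaks was 10.9%, 10.8%, 16.1% and 14.2% in the same order. In any condition 66 members (9.32%, 7.28 to 11.7) carried it, against 16.7% of all peaks of the list. When an overlap had to cover 50% of the peak, for both marks, the rule gave another set of 826 members. Among these the share was 4.84% (3.48 to 6.54) in KO doxorubicin and 4.72% (3.38 to 6.40) in KO mock cells, against 7.38% (5.70 to 9.39) in WT doxorubicin and 7.26% (5.59 to 9.25) in WT mock cells. The background above is for the 1-bp rule, and none is given for the 50% rule. By the 1-bp rule the whole list also had higher shares in the WT than in the KO libraries. Whether the difference under the 50% rule is particular to members was not tested. By the 1-bp rule most of the 66 carried H3K4me3 throughout: 50 had it in all 4 conditions, and 642 members had none in any.

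The shares in the KO libraries and in the WT libraries lay within each other's counting intervals. The same members were read in each library, so that these intervals do not measure the difference between libraries. No member had H3K4me3 in both KO libraries and neither WT library, while 5 (0.706%, 0.230 to 1.64) had it in both WT libraries and neither KO library. Over all KO doxorubicin H3K27me3 peaks these patterns were also unequal, at 4 peaks (0.0224%) in both KO libraries only and 397 peaks (2.23%) in both WT libraries only. A further 5 lacked it in KO mock cells alone, 3 had it in WT doxorubicin cells alone, and the remaining 3 each had a pattern of their own.

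H3K4me3 was also read at H3K27me3 peaks of like score. For scores of 80 to 100, 6.86% of members (4.18 to 10.5, 19 of 277) had H3K4me3 in KO doxorubicin cells, against 2.86% (2.39 to 3.40) of all KO doxorubicin peaks and 2.41% (1.5 to 3.65) of the peaks in all 4 lists, and the interval of the members met neither of the others. For scores of 100 to 150 the shares among members, all peaks and peaks in all 4 lists were 6.71% (4.09 to 10.3), 3.93% (3.41 to 4.49) and 4.67% (3.70 to 5.81). For scores of 150 to 400, which hold all other members, they were 12.8% (7.91 to 19.3), 11.1% (10.3 to 12.0) and 12.2% (11.2 to 13.4). In these 2 higher classes the intervals overlapped. For H3K4me3 of WT doxorubicin cells they overlapped in the lowest class too, at 6.86% (4.18 to 10.5) of members and 4.70% (3.39 to 6.32) of peaks in all 4 lists. In KO mock cells these shares were 6.50% (3.90 to 10.1) and 2.63% (1.68 to 3.93). In WT mock cells they were 6.86% (4.18 to 10.5) and 4.58% (3.29 to 6.19), and both pairs overlapped. Peaks in both KO lists and 1 WT list also overlapped the members there in KO doxorubicin cells, at 5.26% (2.43 to 9.76) with WT doxorubicin and 4.81% (2.72 to 7.81) with WT mock.

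The share with H3K4me3 also differed between the combinations of lists. Among peaks with the KO doxorubicin list and 1 WT list, H3K4me3 in KO doxorubicin cells lay at 3.31% (2.33 to 4.55) with WT doxorubicin and 1.76% (1.06 to 2.73) with WT mock. It lay at 2.99% (2.39 to 3.68) of those in the KO doxorubicin list alone and at 2.34% (1.58 to 3.32) of those in KO doxorubicin and both WT lists. Where both KO lists and 1 WT list held the peak, it lay at 9.50% (7.53 to 11.8) with WT doxorubicin and 9.43% (7.78 to 11.3) with WT mock. With all scores pooled, the members' interval, 6.15 to 10.3, overlapped those of the combinations with both KO lists and 1 WT list, and met none of those without the KO mock list. Within score classes it overlapped some of those as well. For scores of 150 to 400 the share was 12.8% (7.91 to 19.3) of members, 6.23% (3.67 to 9.78) of peaks in the KO doxorubicin list alone and 7.45% (4.55 to 11.4) of those shared with WT doxorubicin. For scores of 100 to 150 it was 6.71% (4.09 to 10.3) of members and 2.99% (2.04 to 4.21) of peaks in the KO doxorubicin list alone.

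Wild-type-only peaks seldom carried H3K4me3. In KO doxorubicin, KO mock, WT doxorubicin and WT mock cells it lay at 18, 10, 18 and 14 of the 1394, or 1.29% (0.767 to 2.03), 0.717% (0.345 to 1.32), 1.29% (0.767 to 2.03) and 1.00% (0.550 to 1.68). The background over all WT doxorubicin H3K27me3 peaks was 9.81%, 9.83%, 15.0% and 13.3% in that order. In any condition 23 wild-type-only peaks (1.65%, 1.05 to 2.47) carried it, against 15.7% of all peaks of that list. The intervals for knockout-only and wild-type-only peaks did not meet in any of the 4 H3K4me3 libraries. A gap in the same direction was found for H3K27me3 peaks of a single list, so that it was not particular to these sets. H3K4me3 of KO doxorubicin cells lay at 2.99% (2.39 to 3.68) of peaks in the KO doxorubicin list alone. For peaks in the WT doxorubicin list alone it was 0.840% (0.533 to 1.26). All these intervals cover counting over peaks and not the spread between libraries, and neighbouring peaks are not independent.

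**Figure D5:**
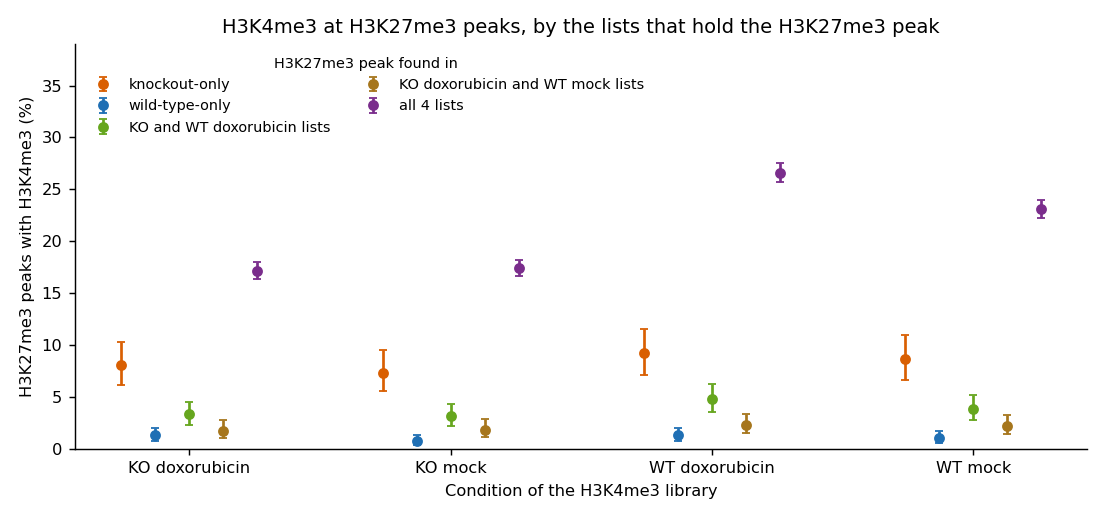
Points give the share of H3K27me3 peaks (y axis, percent) that overlap an H3K4me3 peak of each condition (x axis), with exact 95% binomial intervals as bars, for peaks found in the lists named in the legend. Knockout-only peaks stand at 7.34 to 9.18%, wild-type-only peaks at 0.717 to 1.29% and peaks in all 4 lists at 17.2 to 26.6%.

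The 50 members with H3K4me3 throughout were led by the chromosome 13 member at 53565964, whose H3K4me3 score was 1541 in KO doxorubicin, 1441 in KO mock, 2359 in WT doxorubicin and 2412 in WT mock cells. H3K4me3 covered 55.4% of it in KO doxorubicin, 85.0% in KO mock and all of it in both WT libraries. At the chromosome 5 member at 12383688 the H3K4me3 scores were 480, 328, 997 and 672 in the same order. At chr2:179958833-179960734 (H3K27me3 scores 265 in KO doxorubicin and 206 in KO mock cells) they were 1527, 1402, 2515 and 2157.

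At chr12:74143307-74145090 (H3K27me3 scores 247 and 141) the H3K4me3 score was 3100 in all 4 libraries, but H3K4me3 covered only 0.336% of the member in KO doxorubicin and 47.0% in KO mock cells, against 9.59% in WT doxorubicin and 53.7% in WT mock cells. At chr4:120339603-120341533 (238 and 199.98) it was 303, 303, 2431 and 1136. Scores are not comparable between lists, and these are given side by side without a comparison.

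Of the 5 members with H3K4me3 in both WT libraries and neither KO library, the chromosome 7 member at 127951757 had H3K4me3 scores of 276 in WT doxorubicin and 212 in WT mock cells. The nearest H3K4me3 peak of the KO lists was 19859 bp away in doxorubicin and 19848 bp away in mock cells. The other 4 had an H3K4me3 peak of at least 1 KO library close by. At chr15:7764826-7765845 the H3K4me3 score was 3100 in both WT libraries, while H3K27me3 scored 141 in KO doxorubicin and 91.7 in KO mock cells and lay 109288 bp from WT H3K27me3. There H3K4me3 stopped 628 bp short of the member in KO doxorubicin and 411 bp short in KO mock cells. At chr13:115720299-115721634 H3K4me3 scored 627 and 443 in WT doxorubicin and WT mock cells, and H3K27me3 125 and 205 in KO doxorubicin and KO mock cells. The H3K4me3 peaks of KO doxorubicin and KO mock cells lay 122 bp and 49 bp away.

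The remaining pair lay beside WT H3K27me3. At chr6:126112118-126112993 H3K27me3 scored 142 in KO doxorubicin and 1197 in KO mock cells, with a WT peak 94 bp away, and H3K4me3 scored 730 in WT doxorubicin and 142 in WT mock cells. A KO doxorubicin H3K4me3 peak lay 107 bp away, and the nearest of KO mock cells 666936 bp away. The KO mock H3K27me3 peak of score 1197 ran from 126111334 to 126117489 and so also touched that WT H3K27me3 peak. At chr11:82743236-82744185 H3K27me3 scored 118 and 87.7, with a WT peak 390 bp away, and H3K4me3 scored 1058 and 415 in WT doxorubicin and WT mock cells, against KO doxorubicin and KO mock H3K4me3 peaks 155 bp and 293 bp away. The chromosome 14 member at 34163740 had H3K4me3 in WT doxorubicin cells alone, with a score of 249.9.

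Where H3K4me3 was present, the median share of a member it covered was 51.3% (39.01 to 64.6, 57 members) in KO doxorubicin and 51.6% (38.6 to 65.9, 52 members) in KO mock cells, against 72.2% (59.2 to 79.7, 65 members) in WT doxorubicin and 69.6% (58.0 to 89.8, 61 members) in WT mock cells. Over all KO doxorubicin H3K27me3 peaks scored under 400 with H3K4me3 the median was 40.2% in KO doxorubicin and 41.1% in KO mock cells, against 48.8% in WT doxorubicin and 52.5% in WT mock cells. The intervals of the members' medians in the KO and WT libraries overlapped, but they rest mostly on the same members and do not measure the difference between libraries.

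Members with H3K4me3 in any condition had a median gap to WT H3K27me3 of 3894 bp (1377 to 16339) against 1723 bp (1453 to 2136) for those without, and these intervals overlapped. H3K4me3 in any condition was found at 15.7% (10.5 to 22.1, 26 of 166) of members more than 10 kb from WT H3K27me3 and at 7.38% (5.32 to 9.91, 40 of 542) of the others. Members without an H3K4me3 overlap were mostly far from one as well, and the median gap over all members to the nearest H3K4me3 peak was 22754.5 bp in KO doxorubicin, 24842 bp in KO mock, 18752 bp in WT doxorubicin and 21187 bp in WT mock cells.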

How the data were processed

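The 8 ChIP libraries (2 marks, 4 conditions) each had 1 deposited peak list. The submitters' processing notes name the aligner Bowtie (0.12.7), the peak caller MACS (1.4.2) and mouse build mm9. The authors deposited for each peak a score, the −log10 p value of MACS multiplied by 10, per the file headers, and each list starts at 80. Printed coordinates are mm9 and count from 1, on the assumption that deposited starts count from 0.

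Peaks were taken as shared when they had at least 1 bp in common, and gaps run from edge to edge. Shares carry exact (Clopper-Pearson) 95% binomial intervals and medians 95% order-statistic intervals, and both cover counting over peaks only. No test between conditions was made. The members, lists and comparisons were chosen with earlier results of these data known. Members were named by rule: the 10 highest-scoring, 5 farthest from WT peaks and 5 widest, the 3 fullest runs, up to 5 highest-scoring with H3K4me3 in both KO lists only (0 found), in both WT lists only or in all 4, and 3 at each threshold. No mm9 annotation or sequence was used, so no gene or sequence is given. The overlap, distance and joining rules were tested on simulated peaks. Alternatives were a score of at least 100, 50% overlap, sharing within 1 kb, joining under 3 kb, equal list sizes, KO mock peaks as members, and 2 more chosen after seeing the data. Tools were Python (3.11.15) with scipy (1.17.1), numpy (2.4.6), pandas (2.3.3) and, for figures, matplotlib (3.10.9).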

Additional observations from a re-analysis of the deposited data

How the results depend on the processing

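No paired analysis was possible because each group had 1 library. Of 56 alternative values 35 stayed within the main interval (or, for counts, within 1.5 times). The knockout-only count was 424 after joining peaks under 3 kb apart and 496 to 826 otherwise, and under each planned setting it stayed below the wild-type-only count made the same way (721 to 1910). Counted from KO mock peaks, 708 members stood above the 658 peaks shared with WT doxorubicin alone and below the 1417 shared with WT mock alone, so that the knockout-only class was the smaller of the 3 only when counted from KO doxorubicin peaks. The median gap to WT H3K27me3 moved to 2781.5 bp with scores of at least 100, 452.5 bp with 50% overlap, 5663 bp with sharing within 1 kb, 5823 bp with joining, and 2734 bp for members whose KO mock partner was free of WT peaks, an alternative chosen after seeing the data. Sharing within 1 kb, 50% overlap and joining change the gap by construction. The share with another member within 10 kb moved to 8.06% (scores of at least 100), 14.7% (within 1 kb) and 2.59% (joined). The median score moved to 137 (scores of at least 100), 114.9 (50% overlap) and 117 (equal list sizes). The share with H3K4me3 in KO doxorubicin, KO mock, WT doxorubicin and WT mock cells moved, where it moved, as follows. With scores of at least 100 it was 9.68% in KO mock, 12.1% in WT doxorubicin and 11.3% in WT mock. With 50% overlap it was 4.84% in KO doxorubicin and 4.72% in KO mock. With sharing within 1 kb it was 11.4%, 10.4%, 12.6% and 11.9%. The 50% and 1 kb rules were applied to H3K4me3 as well, so that the measure and the set of members both changed by construction. Sharing within 1 kb thus counts H3K4me3 peaks that lie up to 1 kb from a member. How much of each shift in the H3K4me3 share came from either change was not tested. The floor of 80 and the unknown depth limit what absence from a list can show.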

Other observations

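A member at chr17:29215715-29216184 had the highest KO mock score of all members, 2937, and a score of 99.5 in KO doxorubicin cells. Scores are not comparable between lists, and this member was singled out after its values were seen. It was 470 bp wide, lay wholly inside a KO mock peak that ran from 29215682 to 29216211, and the nearest WT H3K27me3 peak was 4712 bp away. H3K4me3 covered all of it in the 4 conditions, with scores of 3100 in KO doxorubicin, 175 in KO mock, 1405 in WT doxorubicin and 1279 in WT mock cells. Chromosome 17 carries the targeted locus, and whether this member lies at the altered allele was not tested.

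On chromosome 11 a pair of members lay inside wide KO mock peaks, chosen in the same way. From 96165074 to 96165919 the H3K27me3 scores were 83.1 in KO doxorubicin and 1147 in KO mock cells, with a WT doxorubicin peak 171 bp away and the nearest WT mock peak 43061 bp away. From 96202738 to 96203904 they were 90.7 and 1737, with WT doxorubicin 451 bp and WT mock 5076 bp away. Both carried H3K4me3 in the 4 conditions. Their scores in the KO lists, too, are given side by side without a comparison.

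Knockout-only and wild-type-only peaks sometimes lay in the same neighbourhood. A wild-type-only peak was within 10 kb of 68 of the 708 members (9.60%, exact 95% binomial interval 7.54 to 12.02). The share over all KO doxorubicin peaks is not given, and whether the members' share differs from it was not tested.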
